A study of Mus musculus with 7 samples.

Results

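The genes described here encode subunits of the oxidative phosphorylation machinery from the nucleus. They were chosen by symbol alone, as features with a single NCBI gene number whose mouse symbol begins with Nduf, Sdh, Uqcr, Cox4 to Cox8 or Atp5 in the form used for subunits. The pattern took 84 genes of 24990 features, of which 37 belong by symbol to complex I, 4 to complex II, 8 to complex III, 18 to complex IV and 17 to complex V. A filter on low counts left 80 of the 84 for testing, among 10265 genes. The pattern also takes the pseudogene Ndufs5-ps, the paralogue Ndufa4l2 and the assembly-related Cox7a2l, and it places Ndufa4 with complex I, although structural work assigns that protein to complex IV.

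Oxidative phosphorylation couples the flow of electrons through the inner mitochondrial membrane to the making of ATP. Complexes I and II pass electrons to ubiquinone, complex III passes them to cytochrome c, complex IV passes them to oxygen, and complex V (ATP synthase) uses the proton gradient that complexes I, III and IV build. Most subunits are encoded in the nucleus and several exist as tissue-specific isoforms, while a small set is encoded by mitochondrial DNA. Pluripotent cells rely strongly on glycolysis, and oxidative metabolism is known to gain weight as they differentiate.

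RNA was measured in 7 libraries of embryoid bodies on day 4, the aggregates that mouse embryonic stem cells form in suspension. All came from the R1 embryonic stem cell line, after removal of feeder cells and culture without the self-renewal factor Lif. The kit read polyadenylated transcripts from the 3′ end. By title there were 2 libraries of wild-type cells (WT1, WT2), 2 of cells lacking the promoter of the long non-coding RNA Meteor (pKO1, pKO2), 1 of cells with that promoter inverted (pInv), 1 with an empty vector (Ctrl) and 1 with a CRISPR knockdown of Meteor (KD), named as Cas9 in the design text and as dCas9 in the sample field. The genotype field disagrees with 5 of the 7 titles: it gives the promoter knockout for WT1 and WT2, the inversion for pKO1, and wild type for pKO2 and pInv. Groups follow the titles below, and grouping by the genotype field turned several of the directions among WT, pKO and pInv. Meteor itself was matched to no feature and gives no check of the titles, and the labels used here give no clone numbers.

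Library totals lay between 1898350 (WT2) and 2564478 (WT1) expected counts, and the 84 genes took from 0.888% of them in WT2 to 1.16% in pInv. Markers of pluripotent and streak cells were present in every library, and the summed feeder fibroblast markers reached at most 7.85 CPM (counts scaled to library size with TMM factors). WT2 stood apart in markers of the primitive streak, with T, a mesoderm transcription factor, at 54.6 CPM there and between 178 and 358 CPM elsewhere. Summed macrophage markers were at 221 CPM in KD, of which Lyz2 made up 175 CPM, and at 1.02 to 2.40 CPM in the others. The labels do not say whether replicate libraries had their own cultures, and a p-value here reflects the spread between libraries, which may be technical. Intervals cover counting error only, since the labels name no molecular identifiers. These are bulk samples, in which fewer cells of a type and less RNA per cell cannot be told apart.

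Promoters of 67 of the 84 genes were found in the RefSeq promoter table of GRCm38.p6, each holding 250 bases before the start and 50 after it. NRF1, a transcription factor known for binding promoters of respiratory genes, has the core GCATGCGC, which was searched on both strands. It lay in 10 of the 67 promoters (14.9%), in 6.59% of 3674 promoters of genes at 20 CPM or more, and in 2.80% of all 27025. In 4 genes the matches on the 2 strands overlap by 6 bases as a run of 10 bases before the start. The 180 bases before the start of those 4 are shown because they include both a gene that was low in WT2 (Atp5g2) and genes that were not. Capitals mark the matches to the NRF1 core, and in Cox6a1 also a match to the ETS core described next.
Atp5g2 (chr15:102671048-102671227, minus strand): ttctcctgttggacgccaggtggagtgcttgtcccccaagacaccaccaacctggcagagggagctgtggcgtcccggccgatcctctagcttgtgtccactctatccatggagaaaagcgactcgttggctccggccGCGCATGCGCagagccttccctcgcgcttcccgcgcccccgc
Atp5k (chr5:108434400-108434579, minus strand): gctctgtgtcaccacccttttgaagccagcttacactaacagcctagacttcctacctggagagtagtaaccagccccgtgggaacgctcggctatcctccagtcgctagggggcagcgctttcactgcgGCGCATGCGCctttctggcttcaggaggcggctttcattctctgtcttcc
Cox6a1 (chr5:115348959-115349138, minus strand): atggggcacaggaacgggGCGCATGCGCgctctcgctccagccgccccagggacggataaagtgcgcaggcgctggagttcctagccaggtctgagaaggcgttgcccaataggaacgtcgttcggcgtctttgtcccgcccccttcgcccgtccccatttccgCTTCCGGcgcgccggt
Ndufa11 (chr17:56717582-56717761, plus strand): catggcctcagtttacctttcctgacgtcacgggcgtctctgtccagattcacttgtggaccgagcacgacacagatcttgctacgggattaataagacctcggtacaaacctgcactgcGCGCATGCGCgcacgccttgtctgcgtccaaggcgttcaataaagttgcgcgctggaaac
The run begins 42 bases before the start in Atp5g2, 50 in Atp5k, 60 in Ndufa11 and 162 in Cox6a1. Atp5g2 encodes a form of the c subunit of ATP synthase, Atp5k its e subunit, Cox6a1 the widely expressed form of a cytochrome c oxidase subunit, and Ndufa11 an accessory subunit of complex I. The ETS core CCGGAAG, bound by GABP among others, lay in 16 of 67 promoters (23.9%), close to the 22.6% of genes at 20 CPM or more and above the 9.12% of all promoters. The YY1 core AAGATGGC lay in 9 (13.4%, against 6.80% and 2.88%). The hypoxia core ACGTG lay in 17 (25.4%, against 28.8% and 19.7%). All 4 cores were searched on both strands of the 300 bases, and a match describes letters only. The NRF1 core lay in the promoters of 1 of 11 genes that were 2-fold lower in WT2 and of 8 of 45 others at 20 CPM or more.

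Levels were compared between genes per length, as TPM averaged over the 7 libraries. Median TPM over tested genes was 90.9 for complex I (36 genes), 73.9 for complex II (3) and 124 for complex III (8). It was 161 for complex IV (16) and 238 for complex V (17). The untested genes, of complexes I, II and IV, had low counts, and counting them could only lower those medians. The spread within a complex was wider than that between the complexes. In complex I, Ndufb8, an accessory subunit of the membrane arm, stood highest at 536 TPM and Ndufa1 lowest among tested genes at 6.31 TPM. In complex II, Sdha, the flavoprotein that oxidises succinate, had 95.6 TPM and the membrane anchor Sdhc 13.0 TPM. In complex III, the hinge protein Uqcrh had 961 TPM and the Rieske iron-sulphur protein Uqcrfs1 27.4 TPM. These proteins sit in complexes at fixed ratios, while their 3′ RNA levels differed by more than 10-fold within complexes I and III. In complex IV, Cox5a had 412 TPM and the muscle form Cox8b 1.74 TPM, and in complex V, Atp5l (subunit g) had 995 TPM and Atp5g2 41.0 TPM.

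Across the 7 libraries, the steadiest gene of each complex by SD of log2 CPM was Ndufc1 (0.12), Sdha (0.19), Uqcrh (0.15), Cox6a1 (0.13) and Atp5j2, subunit f of ATP synthase (0.10), from complex I to V. Atp5j2 kept between 137 and 163 CPM. The most variable were Ndufa4 (1.31), Sdhc (0.66), Uqcrb (0.64), Cox8b (1.17) and Atp5g3 (0.82). Steady and variable subunits thus stood side by side in each complex, and all of the variable ones but Cox8b had their lowest value in WT2. Sdhc, for example, had 3.60 CPM in WT2 and 6.98 to 18.5 CPM elsewhere.

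A limit on these levels is the gene length in the deposited tables. For 68 of 83 genes matched to a transcript, that length exceeded the transcript by 1800 to 2200 bases (median excess over the 83, 1959), while for 6 genes, among them Sdhc and Ndufb6, the excess was under 500 bases. TPM orders between genes therefore rest partly on the tables' lengths, whereas CPM of 1 gene across libraries does not. Reads taken from the 3′ end also need not rise with transcript length, so dividing by length can itself shift these orders. Ndufb5 had a mean of 82.9 CPM and 110 TPM. Ndufb6, with a table length of 659 bases, had 17.6 CPM and 118 TPM.

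Of the 84 genes, 4 were not tested for low counts. Cox6a2, the heart and muscle form of subunit 6a, had 0 counts in all 7 libraries. Ndufa4l2 had 0 to 2 counts, Cox7b2 0 or 1, and Sdhd, the second anchor of complex II, 0 to 2.39 CPM. With a floor of 3 counts, a count of 0 allows up to 1.12 CPM in WT1 and 1.80 CPM in WT2.

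The question of the study's design is what deletion, inversion or knockdown of Meteor does to embryoid body RNA. For the 80 tested genes no difference passed the threshold in any comparison. By the quasi-likelihood test of edgeR and after Benjamini-Hochberg adjustment, 0 of 80 were called in each of pKO against WT, pInv against WT and pInv against pKO, beside 0% of all 10265 genes in each. At an unadjusted p under 0.05 there were 0, 2 and 2 of the 80, against 106, 152 and 153 of all genes. Of the same 80, 0 were called in each comparison by DESeq2, by limma-voom, or by limma fitted to log2(TPM + 1). The median log2 difference of the 80 was 0.00, 0.03 and 0.09 in that order, and that of all genes was -0.00, -0.01 and 0. The median standard error of a gene was 0.33, 0.41 and 0.41. Among all genes, 281, 649 and 599 had a fitted difference of 2-fold or more, and none of these was called. The absence of calls therefore does not exclude changes of 2-fold or more in the 80. The 3 comparisons share libraries.

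By complex, the medians for pKO against WT were -0.01 (complex I), 0.09 (II), -0.05 (III), 0.13 (IV) and 0.00 (V). For pInv against WT they were -0.10, 0.12, 0.06, 0.17 and 0.10. For pInv against pKO they were 0.05, 0.33, 0.08, 0.14 and 0.01. The quartiles of all genes tested ran from -0.24 to 0.22, from -0.33 to 0.29 and from -0.30 to 0.28 in that order, and of the complex medians only that of complex II for pInv against pKO, over 3 genes, lay outside them. A median over many genes spreads less than single genes do, so lying inside these quartiles does not show that a complex was unchanged. No complex was set against another by a test.

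**Figure D1:**
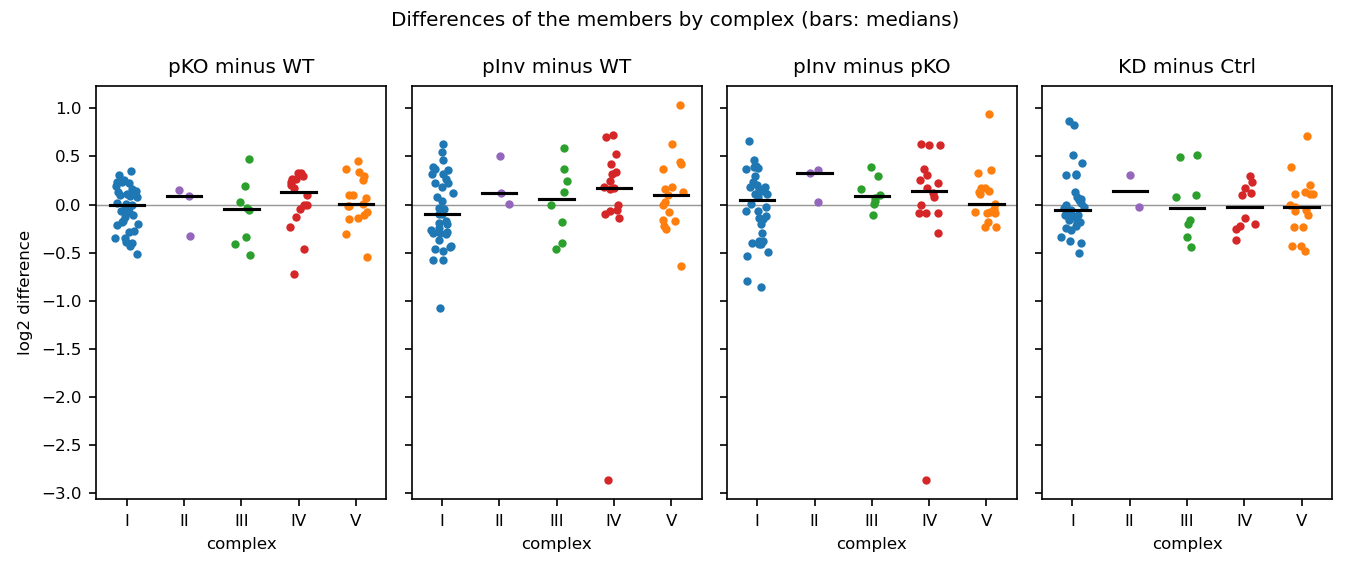
Log2 difference (vertical axis) of each gene by complex (horizontal axis) in the 3 tested comparisons and in KD against Ctrl; each point is 1 gene and the black bars are medians. Most points lie within 1 unit of 0, and the point near -2.87 is Cox4i2 in both pInv comparisons.

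The genes with the smallest p for pKO against WT were all lower in pKO. Ndufv1, the flavoprotein that accepts electrons from NADH, had 61.5 and 73.8 CPM in WT1 and WT2 and 50.6 and 43.5 CPM in pKO1 and pKO2. The log2 difference was -0.51 (SE 0.29), and edgeR gave an adjusted p of 1. The WT libraries lay above the pKO libraries without overlap. Cox6b2, the testis form of subunit 6b, gave -0.72 (SE 0.41), Uqcrq, a small subunit of complex III, -0.53 (SE 0.32), and Atp5h, subunit d of the ATP synthase stalk, -0.55 (SE 0.33), each with an adjusted p of 1. These values rest on single libraries: without WT2 they were -0.34 (Cox6b2), -0.08 (Uqcrq) and -0.20 (Atp5h), without WT1 Uqcrq gave -0.86 and Atp5h -0.82, and Atp5h gave -0.86 without pKO1 and -0.28 without pKO2.

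Differences of the inverted line rest on 1 library. Atp5l had 1065 CPM in pInv, while WT1 held 600.5, WT2 436, pKO1 609, pKO2 499.8, Ctrl 601 and KD 599.8. The pInv library lay above the other 6. The log2 difference was 1.04 (SE 0.34, unadjusted p 0.0154, adjusted p 1 by edgeR) against WT and 0.94 (SE 0.34) against pKO. Ndufs7, an iron-sulphur core subunit of complex I, had 17.8 CPM in pInv, the lowest of the 7, and 28.9 to 48.6 CPM elsewhere, with a log2 difference of -1.07 (SE 0.47) against WT. Ndufb8 stood at 493 CPM in pInv and 306 to 368 CPM in the others (0.66 against pKO, SE 0.30), and Cox6c at 321 against 133 to 253 CPM (0.73 against WT, SE 0.42). Leaving out WT2 gave 0.34 for Cox6c and -0.67 for Ndufs7 against WT, and leaving out WT1 gave 1.26 and -1.40. None of these passed the adjusted threshold.

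Cytochrome c oxidase subunit 4 has a widely expressed form, Cox4i1, and a form known from lung and from oxygen-sensing cells, Cox4i2. For Cox4i1, WT1 held 179 CPM, WT2 279, pKO1 199.7, pKO2 189, pInv 219, Ctrl 206 and KD 177. WT2 was the highest and the other 6 lay close together. Set against WT, its log2 difference was -0.23 (SE 0.30) in pKO and -0.06 (SE 0.36) in pInv, and leaving out WT2 turned these to 0.14 and 0.28. Cox4i2 gave 12 counts each in WT1, WT2 and pKO1, while pKO2 had 14, Ctrl 16, KD 6 and pInv 0. All libraries but pInv held the transcript, at 2.77 CPM (KD) to 8.12 CPM (Ctrl).

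With the floor of 3 counts, the 0 counts of pInv allow up to 1.27 CPM. Measured Cox4i2 levels were 3.53-fold that floor in WT1, 5.66-fold in WT2, 4.50-fold in pKO1, 4.51-fold in pKO2, 2.18-fold in KD and 6.38-fold in Ctrl. These ratios take the measured counts as exact and are not lower bounds. The exact counting interval of pInv ended at 1.57 CPM and that of KD began at 1.02 CPM, so these overlap. In the remaining libraries the interval began at 2.32 CPM (WT1) or higher, above that of pInv. The fitted log2 difference of -2.87 against WT (SE 0.70, unadjusted p 0.00353, adjusted p 1 by edgeR) depends on the prior count and is no bound. With pInv as 1 library there is no replicate of the 0. On the TPM scale, Cox4i1 made up 97.6% of the subunit 4 total in WT1 and WT2, 97.2% in pKO1 and pKO2, 96.4% in Ctrl, 98.6% in KD and 100% in pInv. Cox4i1 exceeded Cox4i2 by 26.5-fold to 68.0-fold in the 6 libraries that held both. Of 5 known regulators of Cox4i2 (Hif1a, Lonp1, Rbpj, Chchd2 and Cxxc5), 0 were called in any comparison. As 0 of all 10265 genes were called, this count cannot show whether the regulators changed. Rbpj ran from 97.7 to 133 CPM.

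**Figure D2:**
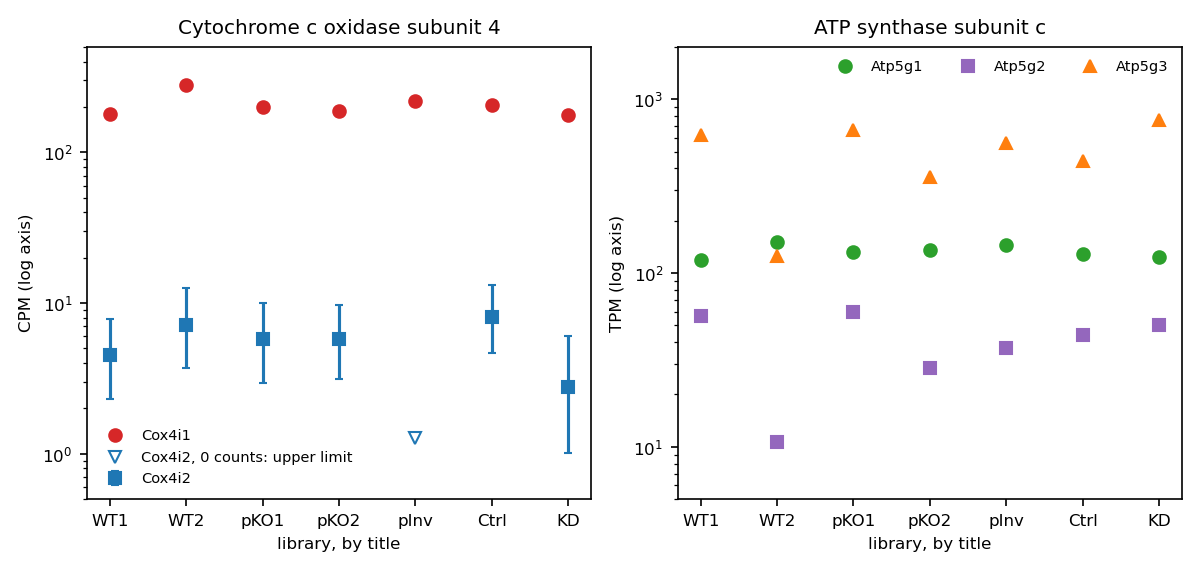
Left, level in CPM (log axis) of Cox4i1 and Cox4i2 in the 7 libraries, with exact 95% counting intervals for Cox4i2. An open triangle marks the floor of 1.27 CPM (3 counts) where pInv had 0 counts. Right, TPM (log axis) of the 3 genes for ATP synthase subunit c; in WT2 Atp5g3 falls below Atp5g1.

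The c subunit, which forms the rotor ring of ATP synthase, is encoded by Atp5g1, Atp5g2 and Atp5g3, which differ in their import peptides and give the same mature protein. For Atp5g3, WT1 held 623 TPM, WT2 126, pKO1 670.1, pKO2 357, pInv 557, Ctrl 443 and KD 763. Atp5g1 stayed between 119 and 151 TPM. Their ratio was 0.832 in WT2 and 2.62 in pKO2, and 3.46 to 6.16 in the other 5 libraries. WT2 was the only library of the 7 in which Atp5g1 exceeded Atp5g3. Atp5g2 moved with Atp5g3, with a ratio of Atp5g3 to Atp5g2 between 10.1 and 15.1 in all 7.

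Other isoform pairs were dominated by the widely expressed form. Cox6b1 exceeded Cox6b2 by 5.33-fold in WT2 and 21.8-fold in pKO1 on the TPM scale, with the others between. Cox7a2 exceeded Cox7a1, the heart and muscle form, by 20.8-fold to 49.1-fold. Cox8a exceeded the testis form Cox8c by 3.73-fold in WT2 to 24.5-fold in pKO1, with Cox8c at 12 to 51 counts. Cox7b had 34.4 to 170 TPM against at most 0.85 TPM of Cox7b2, and Ndufa4 had 4.34 to 80.5 TPM against at most 1.35 TPM of Ndufa4l2.

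Libraries of 1 title differed widely in these genes. Over the 67 genes with a mean level of at least 20 CPM, WT2 was the lowest of the 7 libraries for 29 genes and the highest for 22. These ranks were not counted over all features, where WT2 also stood apart. Its log2 level minus the median of the other 6 libraries had an SD of 0.70 over 4682 features and 0.84 over the 67 genes. In the other libraries the SD over all features ran from 0.29 (Ctrl) to 0.41 (KD). Taking each gene's log2 level in WT2 minus the median of the other 6 libraries, 12 of 67 genes (17.9%) were 2-fold or more lower, where 9.27% of 4682 features were. None of the 67 was 2-fold higher, where 2.56% of the 4682 were. The 12 were named after their values were seen: Ndufa4, Ndufb4 and Ndufs3 of complex I, Uqcrb of complex III, Cox7b and Cox5b of complex IV, and Atp5g3, Atp5g2, Atp5pb, Atp5j, Atp5md and Atp5b of complex V. The nearest inside the threshold were Atp5b (-1.04) and Ndufs3 (-1.01), and the nearest outside Uqcrc2 (-0.97) and Ndufb5 (-0.94).

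**Figure D3:**
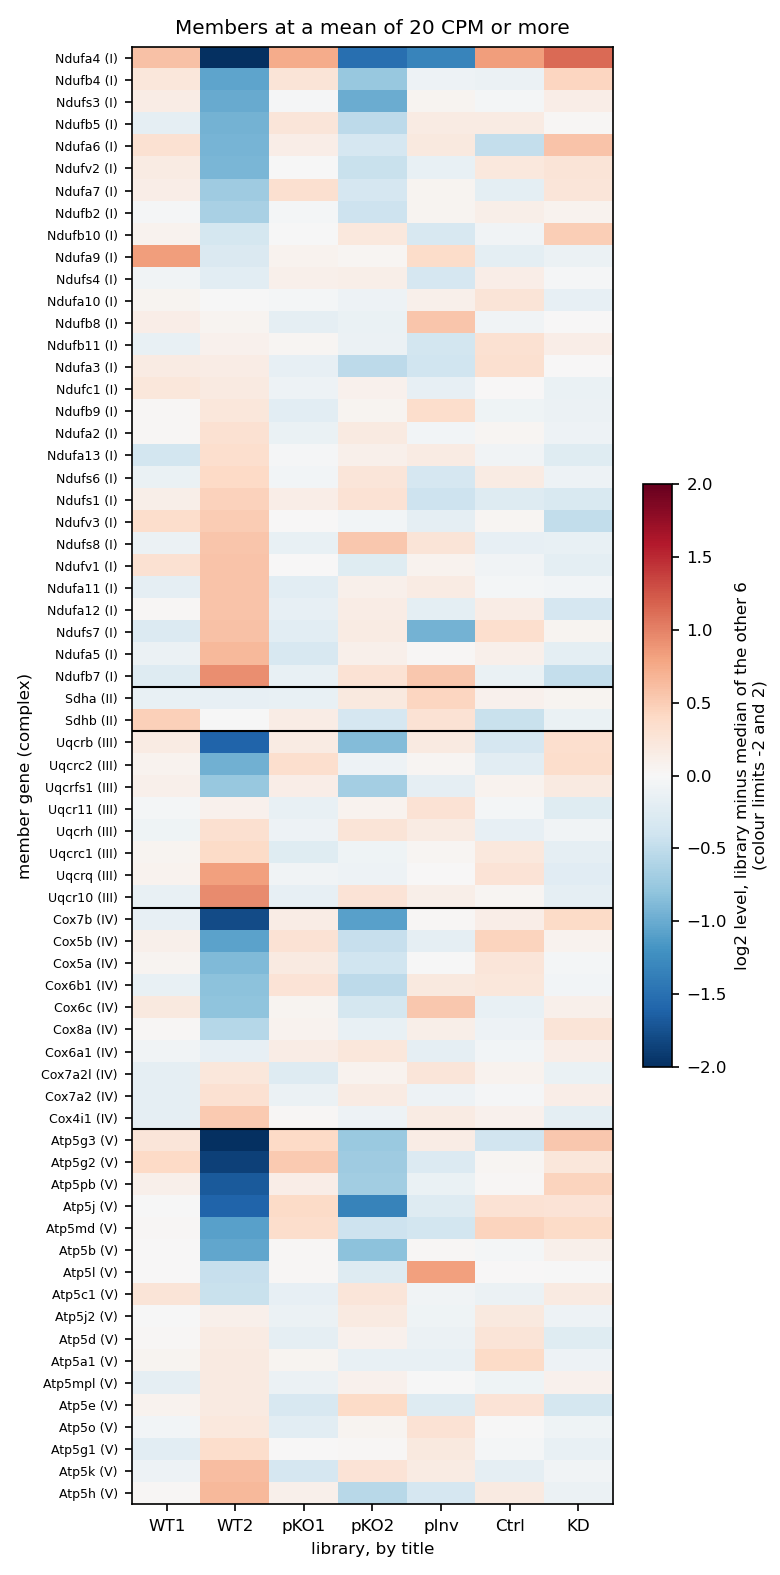
Log2 level of 66 of the 67 genes averaging at least 20 CPM (vertical axis, by complex) in each library (horizontal axis), minus the median of the other 6; colours stop at -2 and 2. WT2 holds both the deepest blue and much of the red within complexes I, III, IV and V, and pKO2 is paler in the same genes.

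Ndufa4 showed the largest difference. WT1 held 34.1 CPM, WT2 3.001, pKO1 36.8, pKO2 11.9, pInv 13.6, Ctrl 39.1 and KD 48.5. WT2 was lowest, with 5 counts, and pKO2 and pInv lay between it and the rest. Its WT2 to WT1 ratio was 0.0880 (exact 95% interval 0.0279 to 0.213). For Atp5g3, WT1 held 402 CPM, WT2 94.2, pKO1 451, pKO2 234, pInv 387, Ctrl 302 and KD 495. WT2 and pKO2 were the 2 lowest libraries. Cox7b, a small subunit of complex IV, had 28.8 CPM in WT2, 47.6 in pKO2 and 91.5 to 124 CPM in the other 5. Uqcrb, which binds near the ubiquinone site of complex III, had 28.8 CPM in WT2, 48.4 in pKO2 and 71.1 to 101 CPM elsewhere.

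Other subunits of the same complexes were higher in WT2. Uqcr10 of complex III had 477 CPM there and 232 to 300.4 CPM in the others, and Ndufb7 of complex I had 234 against 97.0 to 177 CPM. Atp5k had 789 CPM against 430.4 to 616 CPM. The sums by complex differed less than single genes: WT2 had 3063 CPM for complex I against 2727 to 2980 elsewhere, 1770.0 for complex III against 1326 to 1504, 1515 for complex IV against 1600.2 to 1976 and 3605 for complex V against 3566 to 4452. The complex II and complex IV sums of WT2 were the lowest of the 7 on both the CPM and the TPM scale. For complex II they were 165 CPM, against 173 to 228 elsewhere, and 147 TPM, against 164 to 214. The complex V sum was lowest in WT2 in TPM (4689, against 5235 to 6188) but not in CPM. The complex I sum of WT2 was the highest in CPM and the lowest in TPM (4153, against 4189 to 4589.6 elsewhere).

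The second library of the other replicated group moved in the same genes. In pKO2 all 12 lay under the median of the other 6 (median -0.79), whereas the remaining 55 had a median of 0.06 there. The 12 were picked for their WT2 level. The same count was not made over the 434 of 4682 features that were 2-fold lower in WT2, so it is not shown to be particular to these genes. In pKO2, 3 of 67 genes (4.48%) were 2-fold or more lower, against 2.03% of 4682 features. The differences WT2 minus WT1 and pKO2 minus pKO1, which share no library, had Pearson's r 0.846 and Spearman's rho 0.782 across the 67 genes, and 0.496 and 0.471 across 4682 features. These are correlations across genes, which are not independent replicates, and the number in the title is all that the labels give WT2 and pKO2 in common.

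**Figure D4:**
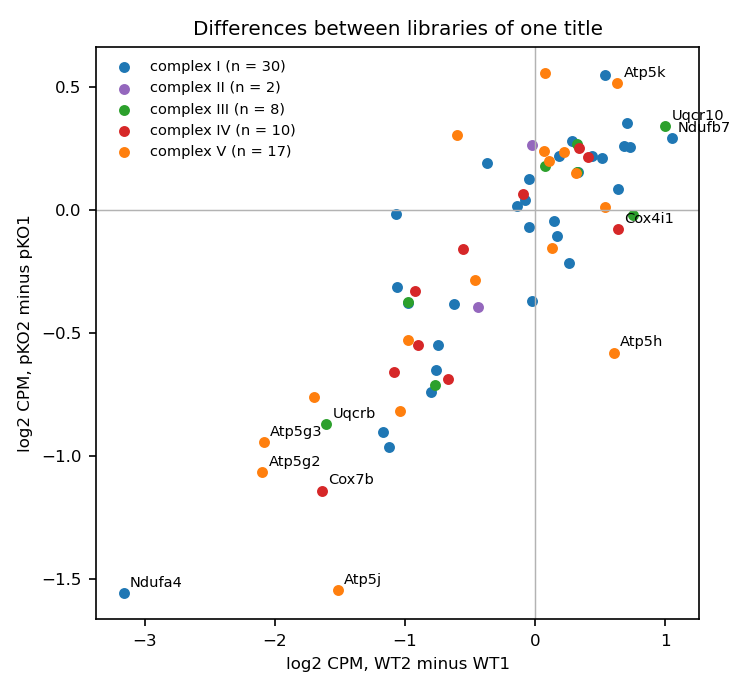
Log2 difference between WT2 and WT1 (horizontal axis) against that between pKO2 and pKO1 (vertical axis) for the 67 genes, coloured by complex. Points run from Ndufa4 at the lower left to Atp5k, Uqcr10 and Ndufb7 at the upper right, and each complex with 8 or more points spans both sides of 0.

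Base composition of the transcript end moved with the WT2 values. Across the 67 genes, the share of G and C in the last 300 bases of the transcript had Spearman's rho 0.56 and Pearson's r 0.57 with the WT2 deviation, against 0.20 (rho) across 4528 features. In the other libraries rho was -0.23 (WT1), -0.53 (pKO1), 0.39 (pKO2), 0.17 (pInv), -0.07 (Ctrl) and -0.50 (KD). Across the 4528 features it was -0.02, -0.15, -0.02, 0.15, -0.07 and -0.09 in that order. The 12 low genes had a median of 39.7% G and C and the other 55 had 48.7%. Over all features the medians lay close together, 41.0% for 421 that were 2-fold lower in WT2 and 42.3% for 4107 others. From the lowest to the highest of 3 classes of composition, 9 of 23, 2 of 22 and 1 of 22 genes were 2-fold lower in WT2. Transcript length had a rho of -0.06. The part of base composition in the result was not tested, nor was that of the streak markers, T among them, that were also low in WT2.

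**Figure D5:**
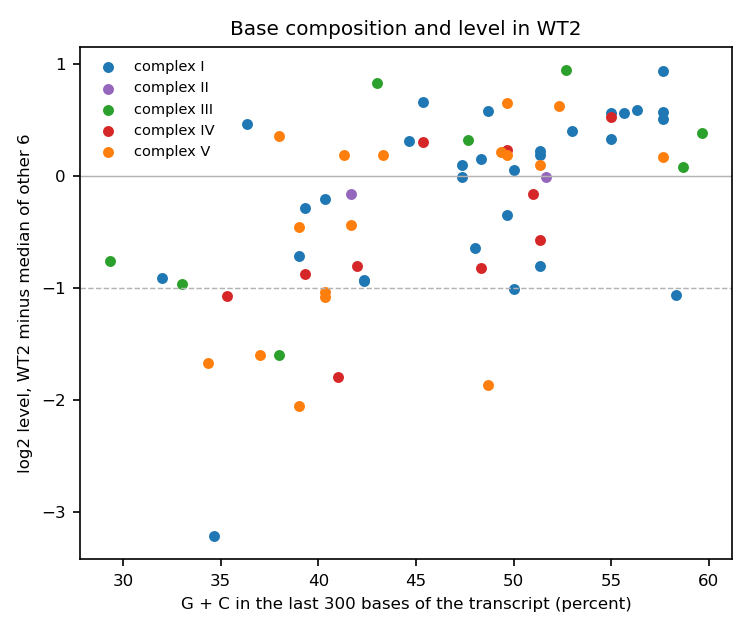
Share of G and C in the last 300 bases of the transcript (horizontal axis, percent) against the log2 level in WT2 minus the median of the other 6 libraries (vertical axis) for the 67 genes, coloured by complex; the dashed line marks 2-fold lower. Of the 12 genes past that line, 9 lie in the lowest of the 3 composition classes.

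The WT2 values weigh on the tests, since WT has 2 libraries. With WT1 left out, WT is WT2 alone and the spread comes from the pKO pair only. In that fit 21 of 80 genes (26.2%) had an unadjusted p under 0.05 for pKO against WT, against 13.2% of 10112 genes, and for pInv against WT the count was 20 (25%) against 12.6%. With WT2 left out instead, the counts were 1 of 80 (215 of all genes) and 2 of 80 (331 of all genes). None of the 80 passed the adjusted threshold of edgeR's test in either fit.

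In KD against Ctrl each group is 1 library, so ratios describe those libraries. Of 69 genes at 20 CPM or more in either, 0 had a 2-fold ratio, where 5.29% of 5083 features did. The median log2 ratio (prior count 2) was -0.04, and that of all features -0.03. The exact 95% counting interval lay above a ratio of 1 for 10 of the 69 genes and below it for 12, where 15.7% and 16.3% of the 5083 features did so. The highest ratios were those of the complex I subunits Ndufa6 (1.85, interval 1.43 to 2.40) and Ndufa8 (1.82, interval 1.15 to 2.95), Atp5g3 (1.64, interval 1.48 to 1.82) and Uqcrc2 (1.45, interval 1.0002 to 2.11), a core protein of complex III. The lowest were Ndufv3 at 0.699, Atp5e at 0.713, Uqcrq at 0.734 and Atp5d at 0.740, the last with an interval of 0.633 to 0.864.

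Cox8b, the heart and muscle form of subunit 8, had 15 counts (6.93 CPM) in KD and 0 counts in the other 6 libraries. This is 4.55-fold the floor of Ctrl (1.52 CPM), a ratio that takes the 15 counts as exact and is no lower bound. The exact counting interval of Cox8b in KD began at 3.88 CPM, above the 1.87 CPM at which that of Ctrl ended. Of 8 macrophage markers, Lyz2 was at 175 CPM, Adgre1 at 28.6 and Csf1r at 12.5 in KD, while Ptprc, Aif1 and Cx3cr1 were at 0 there. Summed striated muscle markers were at 14.8 CPM in KD and between 6.37 and 16.002 CPM over the 7 libraries. Their part in the Cox8b value was not tested.

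Other genes of the pathway were taken from lists. None of the lists held a called gene in edgeR's test, nor did the whole set of 10265 genes. Of 39 tested assembly factors, which build the complexes without staying in them, 15 were higher and 24 lower in pKO than in WT (median -0.13). Of 9 subunits and electron carriers outside the pattern, counting Atp5md again under an older symbol, 6 were higher and 3 lower (median 0.07). Of 12 regulators of mitochondrial biogenesis 8 were higher and 4 lower (median 0.12), and the coactivator Ppargc1a had 0 counts in all 7 libraries. Of 19 genes of the mitochondrial ribosome 6 were higher and 13 lower (median -0.10), and of 15 genes of the tricarboxylic acid cycle 8 were higher and 7 lower (median 0.06). At 20 CPM or more, 0 of 13 assembly factors were 2-fold lower in WT2, where 9.27% of 4682 features were. The count was 1 of 7 outside the pattern (Atp5md), 1 of 7 for biogenesis, 2 of 12 for the ribosome and 1 of 12 for the cycle. With so few genes these counts cannot be set apart from that share. No feature matched the 13 mitochondrially encoded subunits.

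Genes of hypoxia and glycolysis leaned further. Of 29 tested, 3 were higher and 26 lower in pKO than in WT (median -0.35). In pInv 2 were higher and 27 lower than in WT (median -0.42), and the comparisons share the WT libraries. Of all genes tested, 5058 were higher and 5146 lower in pKO, and 4978 and 5215 in pInv. Summed over the 32 genes of the list, WT held 7448 and 7694 CPM. The sum was lower in pKO (5549 and 6561), pInv (6473) and KD (5827), and also in the empty-vector library Ctrl (6233). The cause was not tested. Egln3, an oxygen-sensing prolyl hydroxylase, was at 30.7 and 39.0 CPM in WT, 11.5 and 16.4 in pKO, 17.4 in pInv, 12.2 in Ctrl and 19.9 in KD. Both WT libraries lay above the other 5. Hk1, a hexokinase, had 17.99 and 28.8 CPM in WT, 8.60 and 9.85 in pKO, 13.6 in pInv, 8.63 in Ctrl and 8.77 in KD. Of the 29 genes, 0 passed the adjusted threshold.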

How the data were processed

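For each of 7 libraries the authors deposited a table of expected counts, TPM and FPKM per gene, per the file headers. RSEM and the mouse build mm9 are named per the submitters' processing notes. The labels used here give no aligner settings, strand or duplicate handling, and reads of overlapping or near-identical genes may be mixed. The deposited FPKM values were not used. Symbols came from a RefSeq table of GRCm38, which named 23447 features as single genes; the promoters are of GRCm38.p6, and no coordinates of mm9 are given. Transcript ends came from GENCODE transcripts matched by RefSeq accession.

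The deposited expected counts were rounded and fitted with edgeR 4.0.16 in R 4.3.3 (filterByExpr by group, TMM, prior count 2), with all 7 libraries in 1 quasi-likelihood fit. It had 2 residual and 5.86 prior degrees of freedom. The common biological coefficient of variation was 0.294. A gene was called at an adjusted p (Benjamini-Hochberg, over all 10265 genes) under 0.05. Alternatives used DESeq2 1.42.0, limma 3.58.1 and the deposited TPM on the log2(TPM + 1) scale. The steps were tested on simulated data.

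The genes, lists and rules were chosen with earlier results of these data known. Named were Cox4i1, Cox4i2 and the isoform pairs, the highest, lowest, most and least variable gene of each complex, the 4 smallest p of each tested comparison, the 4 largest ratios each way for KD, and up to 3 genes of each list. Genes described for their WT2 level, the marker genes and the 5 alternatives for the WT2 count were chosen after seeing the data. A gene of the set is not reported here by name.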

Additional observations from a re-analysis of the deposited data

How the results depend on the processing

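No gene of the 80 was called under any alternative run, including each left-out library. Over all genes the calls went from 0 to 9 (pKO against WT), 6 (pInv against WT) and 8 (pInv against pKO) without the filter on low counts, to 7 for pInv against WT with groups from the genotype field, and without pKO2 to 7 for both pKO against WT and pInv against pKO (4 and 2 without pKO1). Grouping by the genotype field turned the log2 difference for pKO against WT to 0.49 (Ndufv1), 0.42 (Cox6b2), 0.50 (Uqcrq), 0.75 (Atp5h) and 0.16 (Cox4i1), for pInv against WT to 0.80 (Cox4i2), -0.36 (Atp5l), 0.15 (Ndufs7) and -0.13 (Cox6c), and for pInv against pKO to -0.22 (Ndufb8) and -0.19 (Cox4i1). Under that grouping the median of the 80 genes for pInv against pKO became -0.00078. Without WT2, Cox4i1 gave 0.14 (pKO against WT) and 0.28 (pInv against WT). For pKO against WT, Cox4i2 gave -0.28 without WT1, -0.0023 without pKO2 and -0.017 with DESeq2, and leaving out each library gave -0.28 to 0.32 for Cox4i2, -0.52 to 0.14 for Cox4i1, and -0.35 to 0.28 for Cox4i1 in pInv against WT. Leaving out each library in turn, the median of the 80 genes ran from -0.07 to -0.00 for pKO against WT, from -0.04 to 0.08 for pInv against WT and from 0.01 to 0.16 for pInv against pKO, the lowest of which, 0.0066, was without pKO2. For KD against Ctrl, scaling by total counts gave 1 gene past 2-fold (Ndufa6) and a median of 0.082, a minimum of 5 CPM gave 6 (Cox7a1, Cox7c, Cox8b, Ndufa1, Cox8c and Cox4i2), and deposited TPM gave 1 (Cox8c). The count of genes 2-fold lower in WT2 was 20 of 67 by total counts (29.9%, against 13.8% of all) and 19 of 71 by TPM (26.8% against 13.0%). At a minimum of 50 CPM it was 7 of 54 (13.0% against 8.08%). Without pKO2 among the other libraries it was 14 of 67 (20.9% against 10.6%), and against WT1 only 13 of 66 (19.7% against 9.21%). Total counts moved the WT2 median of all features by -0.21. The causes of these shifts were not tested.

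With the replicate block for pKO against WT, 0 genes were called and the median was 0.01. The numbers in the titles are not shown to pair the libraries: with 2 pairs, the differences between libraries of a group correlated at 0.308 over 10265 genes.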
